A study of Mus musculus with 7 samples.

Results

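The regions described here are places in the mouse liver genome where retinoic acid receptor β (RARβ) was called under a retinoic acid (RA) diet and not under a control diet, where retinoid X receptor α (RXRα) was called under both diets, and where retinoic acid receptor α (RARα) was called under neither. They were chosen by the measured peak calls themselves. Overlapping or touching peaks of the 6 deposited lists were merged, and a region counted as called in a list when it held a peak of that list. This gave 4314 member regions of 87787 regions in all. The data are chromatin immunoprecipitation and sequencing (ChIP-seq) of livers from wild-type male C57BL/6 mice aged 3 months, fed a control diet or an RA diet. The labels put the diet at 1 day, but the methods of the study describe RA feeding over more days, and which holds for these livers could not be settled. Each receptor and diet had 1 library of single-end 35-base reads, and an input library of total chromatin is not analysed here. All groups were wild type, and no label ties a library to an animal or a pool of animals.

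RAR and RXR are nuclear receptors that bind DNA as a heterodimer. RARs are activated by all-trans RA, and the pair is best known for binding direct repeats of a 6-base sequence, with 5 bases between the copies (DR5) as the classical RA response element. RXRα is also the partner of PPARα, LXR, FXR, PXR and CAR, which regulate fatty acid, cholesterol, bile acid and drug metabolism in hepatocytes. RARα, RARβ and RARγ are products of separate genes, and Rarb itself is a classical RA target.

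With 1 library per group, no difference between diets has a replicate check, and no p-value is given. Shares carry Wilson 95% intervals, which treat regions as independent and cover counting error only. The score is the peak caller's own value, derived from the p-value of a peak and not normalized between libraries. Diets were therefore compared by rank, the percentage of the peaks of a list that score lower, and scores are printed as the lists give them. The lists held 14968 peaks for RARβ under control and 29467 under RA, 61128 and 59624 for RXRα, and 35521 and 44296 for RARα. Every list starts at a score of 50, and the read depth behind each list is unknown. A longer list from a deeper library and a longer list from more binding cannot be told apart here.

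Sequence could be read at 78 members where an annotated promoter window, 250 bases before to 50 after a RefSeq start, lay at least 50% under the RARβ peak. The 5 windows that follow read 5′ to 3′ along the gene and end at its start (RefSeq, GRCm38.p6, the build of the peak lists). Rab17 and Errfi1 are shown as 2 of the strongest members at a start, Cyp2e1 as a hepatocyte gene with the peak almost centred on its start, and the predicted genes Gm52524 and Gm52427 as the only windows with a DR5. The last 3 were chosen after their values were seen. The window of Ahsg, which scored between Rab17 and Errfi1 for RARβ, also qualified but is not printed, and it held no hexamer. All 5 printed windows hold a hexamer, against 54 of 87 windows at members. Capitals mark the receptor hexamer, spelled as AGGTCA or as a variant with G at the first base (GGGTCA), with T at the third base (AGTTCA) or with both changes (GGTTCA), on either strand.
Rab17, chr1:90967668-90967917, minus strand: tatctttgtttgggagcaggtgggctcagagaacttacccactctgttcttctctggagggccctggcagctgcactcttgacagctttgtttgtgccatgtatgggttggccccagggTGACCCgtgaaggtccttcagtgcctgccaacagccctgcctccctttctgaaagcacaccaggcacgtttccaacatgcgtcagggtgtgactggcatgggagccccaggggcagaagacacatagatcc
Errfi1, chr4:150853546-150853795, plus strand: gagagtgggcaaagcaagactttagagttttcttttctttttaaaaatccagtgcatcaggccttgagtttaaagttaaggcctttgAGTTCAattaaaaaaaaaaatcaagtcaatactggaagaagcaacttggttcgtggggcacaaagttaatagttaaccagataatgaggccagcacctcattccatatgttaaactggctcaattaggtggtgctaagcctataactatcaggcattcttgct
Cyp2e1, chr7:140763569-140763818, plus strand: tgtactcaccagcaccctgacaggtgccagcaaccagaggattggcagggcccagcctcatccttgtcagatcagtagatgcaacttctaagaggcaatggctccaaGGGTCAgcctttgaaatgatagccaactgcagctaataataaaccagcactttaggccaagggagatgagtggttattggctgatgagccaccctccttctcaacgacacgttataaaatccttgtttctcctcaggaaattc
Gm52524, chr2:115776907-115777156, minus strand: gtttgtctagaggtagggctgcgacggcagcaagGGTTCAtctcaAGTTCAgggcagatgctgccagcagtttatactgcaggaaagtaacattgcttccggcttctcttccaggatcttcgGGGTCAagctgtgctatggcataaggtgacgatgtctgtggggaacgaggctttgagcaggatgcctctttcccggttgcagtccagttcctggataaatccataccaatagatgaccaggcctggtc
Gm52427, chrX:11895256-11895505, minus strand: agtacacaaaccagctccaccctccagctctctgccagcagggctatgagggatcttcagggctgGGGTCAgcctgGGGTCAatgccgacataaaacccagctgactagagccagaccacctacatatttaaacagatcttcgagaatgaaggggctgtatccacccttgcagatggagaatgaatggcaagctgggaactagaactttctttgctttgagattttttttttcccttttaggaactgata

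The DR5 of Gm52524 starts at base -216 from the gene start, and its region scored 149.73 for RARβ under RA, 118.44 for RXRα under control and 239.68 for RXRα under RA. The DR5 of Gm52427 starts at base -185 from the start, and its region scored 71.59, 274.71 and 193.77 in the same order. A DR5 was thus in 2 of 87 windows at members (2.30%), with an interval of 0.633 to 7.999, against 32 of all 32851 promoter windows (0.0974%). It was in 1 of 236 windows at regions with RXRα alone and in 1 of 113 where both RARs were gained, and in 1 of 93 at members when windows were placed by the RXRα peak, so these counts are too small to read. Direct repeats with 0 to 4 bases between the copies were in 0 of the 87 windows, which allows up to 4.23%, and each kind was in 0.0396% to 0.268% of all windows. At least 1 hexamer was in 54 of the 87 windows (62.1%, 51.6 to 71.5), against 43.7% of all windows. The share was nearly the same at regions with RXRα alone in both diets (60.6% of 236 windows), and it was lower at regions called in all 6 lists (38.1% of 5668). Windows at members held a median of 5 CG dinucleotides, against 7 in all windows, 6 at regions with RXRα alone, 4 where both RARs were gained and 23 at regions called in all 6 lists. A match is a description of letters and not a bound site.

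RARβ was called under RA and not under control in 19.8% of all regions, in 30.9% of regions with RXRα in both diets, and in 22.5% of the 19135 regions that also lacked RARα and control RARβ. The last of these shares is the members' own, fixed by the rule, and the other 14821 regions of that kind carried RXRα alone. Where RARα was called in both diets, 5871 of 8303 regions gained RARβ (70.7%). Where RARα was called under RA only, the share was 56.7% of 5977 regions, and where it was called under control only, 45.4% of 1926. RARβ was thus gained least often at RXRα regions without RARα. Members still made up 24.9% of all regions that gained RARβ, and they held 4337 peaks, or 14.7%, of the RARβ list under RA. The 22.5% depends on the lists. It was 45.3% with lists of equal length and 9.61% with a score of at least 100 in the RARβ list under RA and both RXRα lists. The shares at regions with RARα were not recomputed in these settings. With equal length, weaker RARα peaks were also dropped, so regions that hold them could count as free of RARα.

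Members had higher RXRα ranks than regions with RXRα alone, and lower ones than the other regions with RARβ under RA. Their median RXRα score was 204.18 under control and 227.39 under RA, and their median RXRα ranks were 64.4 and 67.4. Regions with RXRα alone had median ranks of 43.4 under control and 40.2 under RA. The median control rank was 79.5 where RARβ was gained at constant RARα, 78.3 where both RARs were gained and 68.7 in regions called in all 6 lists. When the 19135 regions were put into 10 equal groups by RXRα control score, the share that gained RARβ rose at every step, from 9.81% (8.56 to 11.2) in the weakest group to 51.8% (49.5 to 54.0) in the strongest. The weakest group scored 50.01 to 63.55 and the strongest at least 341.13. In the same score ranges, regions with RARα in both diets went from 40.8% to 90.9%, above the members' share in each of the 10 groups. The ranges are broad, the top range has no upper limit, and scores within a range were not matched further.

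**Figure D1:**
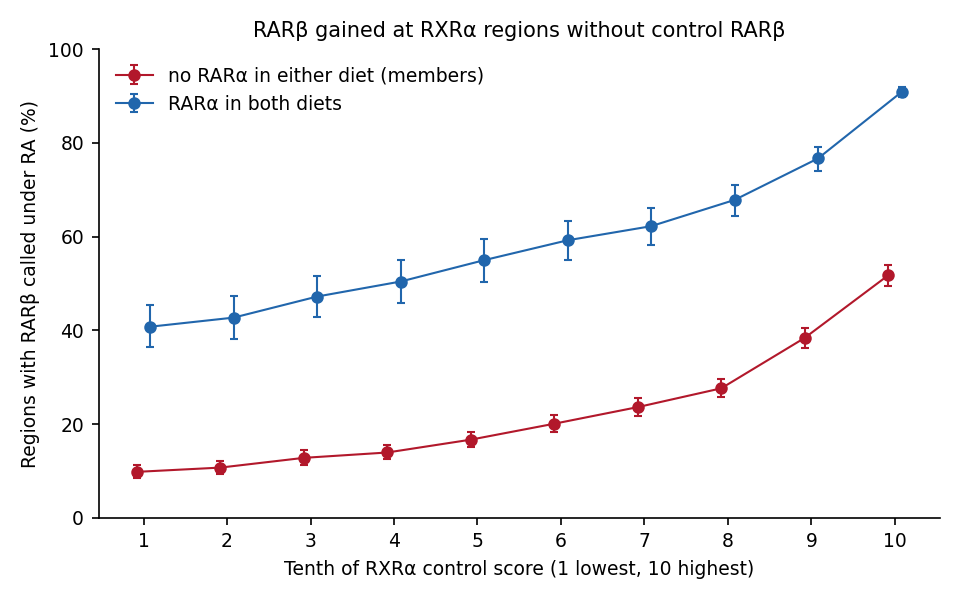
Share of RXRα regions without control RARβ at which RARβ was called under RA (y axis, percent), by 10 groups of RXRα control score (x axis, weakest to strongest). Red points are regions without RARα, whose called regions are the members, and blue points are regions with RARα in both diets, in the same score ranges. Bars are Wilson 95% intervals. The red share rises from 9.81% to 51.8%, below the blue share throughout.

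The RARβ peaks of members were weak for their list. Their median score was 73.9 (quartiles 59.9 and 99.3, highest 455.6), which is a median rank of 30.7, and 1093 members (25.3%) scored below 60. Only 105 members scored at least 200. The RARβ rank was below the RXRα rank under RA in 85.6% of members. Gained RARβ peaks at regions with RARα in both diets had a median score of 101.74, and RARβ peaks under RA in regions called in all 6 lists 160.14. The weakest members, near Lysmd4 and Zmynd8, scored 50, the floor of the list. On the other side of the rule, the regions that missed it by the weakest control RARβ peak lay near Rrh, Rlf and Corin, with control RARβ scores of 50.05, 50.08 and 50.11. A gain at the edge of the rule can thus rest on a peak just over or just under the floor.

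RARβ and RXRα peaks of a member overlap or touch by the rule. The midpoint of the RARβ peak was a median of 64 bp from the midpoint of the RXRα peak under RA, and within 100 bp in 69.3% of members. This offset was 67.2 bp where both RARs were gained and 76 bp where RARβ was gained at constant RARα. The RARβ peak was a median of 559 bp wide, the RXRα peak 616 bp under RA and 578 bp under control. Of the members, 4171 (96.7%) held exactly 1 peak of each of the 3 lists.

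Among the 20 members with the highest RARβ score, the strongest lay inside Zfp970, a zinc finger gene, at chr2:177471839-177472724. It scored 455.6 for RARβ under RA, 667.74 for RXRα under control and 788.42 for RXRα under RA. The next lay 116 kb downstream of the start of Ptpru, a receptor tyrosine phosphatase, with 412.66, 246.51 and 666.27 in the same order. Its RXRα rank rose from 71.1 to 94.7, and a RARα peak lay 305 bp away. The third lay 117 kb downstream of Cyp26a1, the RA-induced enzyme that degrades RA, at chr19:37814347-37815036. It scored 386.53 for RARβ, 198.31 for RXRα under control and 389.63 for RXRα under RA, and the nearest RARα peak was 21.8 kb away. Nearest starts name a place and do not show which gene a region acts on.

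Others of the 20 lay near genes of varied function. The member inside Snx21, a sorting nexin, scored 374.08 for RARβ and had the highest RXRα control score of the 20, 868.33. A member 2.05 kb upstream of Col11a2 lay inside the span of Rxrb, the gene of another RXR, and scored 318.27 for RARβ, 471.94 for RXRα under control and 437.01 under RA. The member 13.6 kb downstream of Selenbp2, a selenium-binding protein gene, had RXRα scores of 186.12 under control and 708.76 under RA, ranks of 61.0 and 95.5. The largest rise in RXRα rank among the 20 was near Cyp2d9, a liver cytochrome P450, where the score was 73.27 under control and 249.55 under RA and the rank rose by 50.7 points. The member near Cd38, an NAD-consuming enzyme, scored 291.42 for RARβ, 236.63 for RXRα under control and 297.27 under RA. The RXRα rank was higher under RA in 18 of the 20. The exceptions were the Col11a2 and Enox1 members, at -2.70 and -0.47 points. Of the 20, 6 lay within 10 kb of a protein-coding start, and 7 were over 50 kb from one. This is near the shares of all members, of which 29.2% lay within 10 kb and 68.1% within 50 kb.

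**Figure D2:**
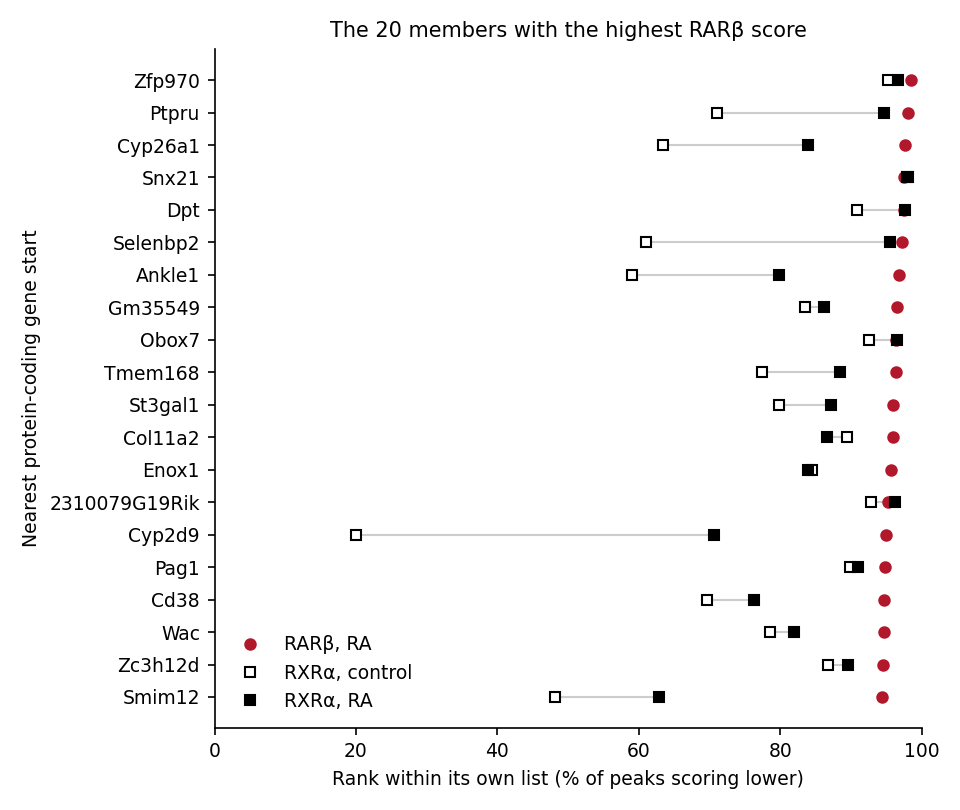
Rank of a peak within its own list (x axis, percentage of peaks scoring lower) for the 20 members with the highest RARβ score, named by the nearest protein-coding start (y axis). Red circles are RARβ under RA, open squares RXRα under control and filled squares RXRα under RA, 1 library each. The filled square lies right of the open square in 18 of 20 members, and the widest gap is at Cyp2d9.

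Over all members, the RXRα rank was higher under RA in 55.9% of members (54.4 to 57.4), against 50.3% of all regions with RXRα in both diets and 45.8% (45.0 to 46.6) of regions with RXRα alone. The median change was 1.78 rank points in members and -2.09 in regions with RXRα alone. Regions called in all 6 lists, where RARβ was not gained, showed 56.7%, regions that gained both RARs 58.4%, and regions that gained RARβ at constant RARα 51.4%. Without RARα, regions with RARβ in both diets showed 50.5% and regions with RARβ under control only 38.4%. A higher RXRα rank was thus not limited to regions that gained RARβ. Among members, the share with a higher rank was larger at higher RARβ scores. It was 50.8% (46.1 to 55.5) in the weakest of 10 equal groups of members by RARβ score and 71.5% (67.1 to 75.6) in the strongest. Among the 105 members with a RARβ score of at least 200 it was 83.8%. RARβ and RXRα under RA come from livers of the same diet group, and whether they come from the same animals or chromatin is not stated.

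Because members have high RXRα ranks, the comparison was repeated in 10 equal groups by the mean of both RXRα ranks. The share of members with a higher rank under RA lay between 52.6% and 60.6% in these groups, and that of regions with RXRα alone between 35.4% and 49.6%. Members were above the RXRα-only regions in each of the 10 groups. The level depends on the grouping. By RXRα control score, which is itself part of the change, the members' share was 94.1% in the weakest group and 34.5% in the strongest. RXRα-only regions went from 87.0% to 12.8% and were below the members in each of these groups too. RXRα peaks were also wider under RA in 57.8% of members, against 51.2% of regions with RXRα alone. This was not particular to members. The share was 57.8% where RARβ was gained at constant RARα, 61.2% where both RARs were gained and 60.8% in regions called in all 6 lists. Binding strength in reads was not tested, since the lists hold no read counts.

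**Figure D3:**
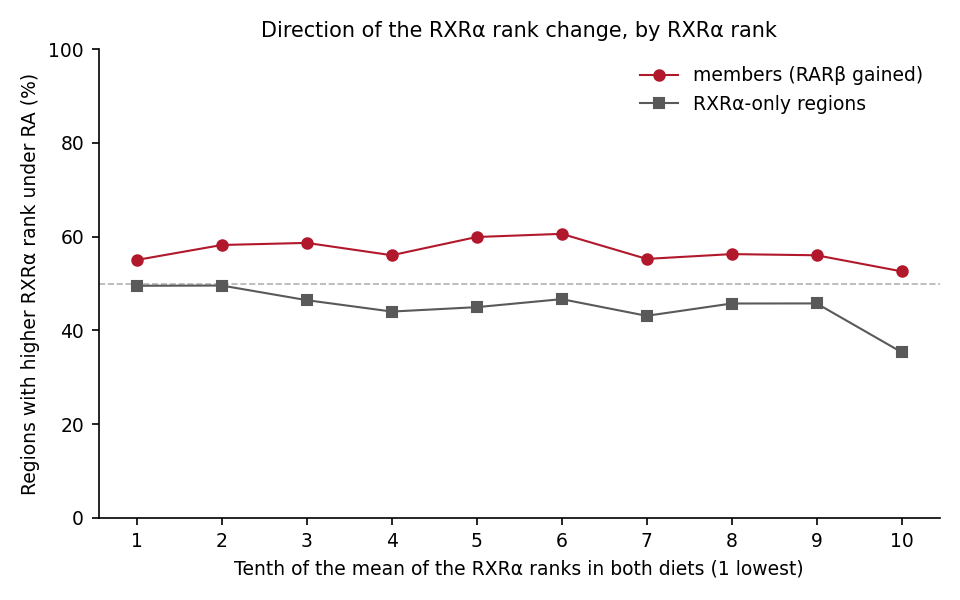
Share of regions whose RXRα rank within its list was higher under RA than under control (y axis, percent), by 10 groups of the mean of both RXRα ranks (x axis). Circles are members and squares are regions with RXRα alone, and the dashed line marks 50%. Members range from 52.6% to 60.6% and lie above the RXRα-only regions in every group.

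Members were mostly far from gene starts. Of the 4314, 140 (3.25%) had the RARβ midpoint within 1 kb of a protein-coding start, against 13.9% of all regions, and 1259 (29.2%) within 10 kb, against 34.1% of all regions. The median distance was 24.7 kb, and 55.7% lay inside a protein-coding gene. Regions with RXRα alone were alike in place, with 2.72% within 1 kb and 26.8% within 10 kb. Regions that gained RARβ at constant RARα had 22.6% within 1 kb, and regions called in all 6 lists 60.2%. The gain share changed little with distance. It was 25.2% (21.7 to 29.1) of the RARα-free regions up to 1 kb from a start, and 21.3% (20.3 to 22.3) of those over 50 kb away. By chromosome the gain ran from 19.96% on X to 25.9% on 12, apart from Y, where 28 of 56 regions gained RARβ (50%, 37.3 to 62.7).

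**Figure D4:**
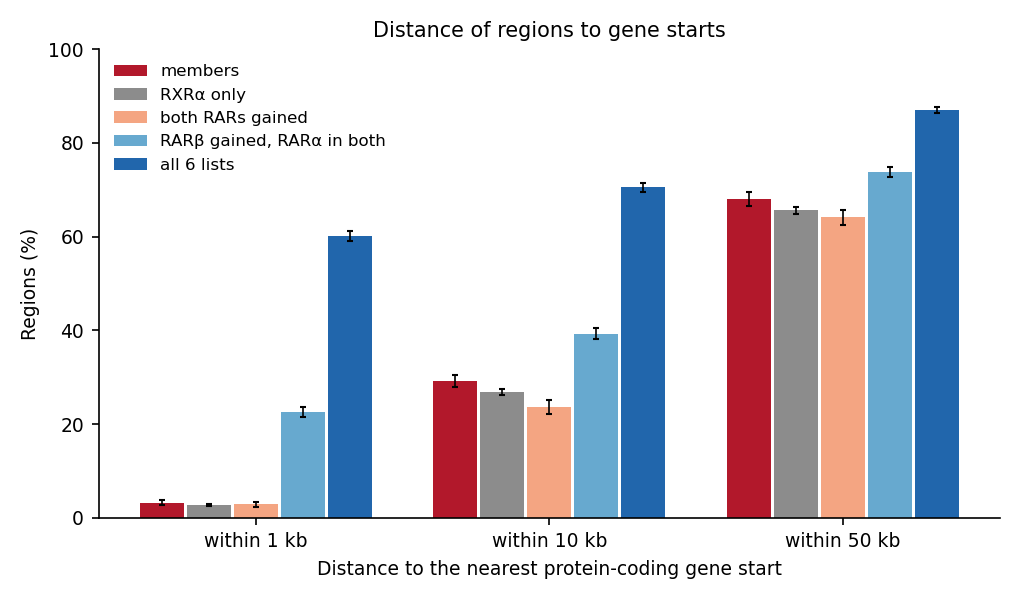
Share of regions (y axis, percent) within 1, 10 and 50 kb of a protein-coding start (x axis), for members and 4 other kinds of region, with Wilson 95% intervals. Members are at 3.25% within 1 kb, next to RXRα-only regions at 2.72% and far under regions of all 6 lists at 60.2%.

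The 10 members with the highest RARβ score within 1 kb of a start lay at genes of varied function. The highest scoring of the 10 strongest within 1 kb lay in Plin4, a lipid droplet perilipin, 980 bp downstream of its start and 8.50 kb from the start of Plin5, the perilipin of oxidative tissues. It scored 247.25 for RARβ under RA, 235.04 for RXRα under control and 528.56 under RA. The Rab17 member, at a small GTPase of epithelial membrane traffic whose promoter is printed above, was 93 bp upstream and scored 222.95, 321.05 and 387.08. The Errfi1 member, at an inhibitor of the EGF receptor, was centred 83 bp downstream and scored 156.59, 373.79 and 455.93, and no RARα peak lay within 34.4 kb of it. Ahsg encodes fetuin-A, a plasma protein made by hepatocytes. Its member lay 298 bp upstream, scored 168.1, 400.35 and 349.4, and its promoter window held no hexamer. Cyp17a1, a steroid hydroxylase, had a member 198 bp upstream with 149.66, 451.89 and 646.93. The members at Tlr3, a receptor for double-stranded RNA, and Dkk4, a Wnt antagonist, were among those with a lower RXRα rank under RA. The Tlr3 member had 544.33 under control and 452.16 under RA, and the Dkk4 member 627.78 and 518.67. The rest of the 10 lay at Gm40862, Lims2 and 2610301B20Rik. In all, 6 of these 10 had a higher RXRα rank under RA, near the 55.9% of all members.

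RARα was absent from members by the rule, but it was often near. The nearest RARα peak of either diet was a median of 6073 bp away, and within 10 kb for 64.1% of members (62.7 to 65.5) and 58.1% of regions with RXRα alone. It was within 200 bp for 87 members (2.02%), a gap small enough that the absence rests on where a peak ends. The share was alike at regions with RXRα alone, 2.18%. Most genes near a member also had RARα. Of 1369 protein-coding genes with a member within 10 kb of a start, 90.2% also had the midpoint of a RARα peak within 10 kb, against 66.7% of all genes, and 59.6% had a control RARβ peak, against 45.0%. Neither was near 129 of these genes (9.42%), against 32.6% of all genes. For 553 genes (40.4%), no RARβ peak lay within 10 kb under control, so RARβ was first called there under RA. The share was 23.6% of the 12003 genes with any RARβ peak under RA within 10 kb. Every gene with a member has such a peak by the rule, and has it in a region without control RARβ. The 12003 genes were not chosen in that way, so a higher share at genes with a member is partly built in. Genes with more RXRα regions have more chances to hold a member, and this was not taken out of these shares.

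Some genes held several members within their span or 10 kb of it. Rbpms, an RNA-binding protein gene, held 9, with RARβ scores from 53.3 to 180.2, no control RARβ peak, and 12 regions with RXRα in both diets and without RARα or control RARβ. Prkce, a protein kinase C gene, and Sgms1, a sphingomyelin synthase gene, held 6 each, of 18 and 12 such regions. The 6 of Sgms1 scored from 50.8 to 78.34, all below the median of the RARβ list under RA, 99.4. Their median of 75.1 was near that of all members, 73.9. Long genes hold more regions of every kind, and 587 genes had 2 or more members.

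Gene lists of liver pathways were then read against the background, in which 6.36% of all 21536 protein-coding genes had a member within 10 kb of a start. Each list was also read at the level of sites: of the RXRα regions without RARα or control RARβ within 10 kb of its starts, the share that gained RARβ, which was 24.1% over all genes. Lists of metabolic and secreted proteins lay above the gene background, and of the pathway lists glucose and amino acid metabolism and the retinoid pathway were the highest within 10 kb of a start. The order depends on the reach: within 50 kb, where all genes were at 22.6%, lipogenesis was the highest at 70%. Within 10 kb, housekeeping lists lay close to the 6.36% of all genes, with 6 of 97 ribosomal protein genes (6.19%) and 4 of 49 Nduf genes of mitochondrial complex I (8.16%). At the level of sites, 6 of 36 gained RARβ at ribosomal protein genes (16.7%) and 4 of 9 at Nduf genes (44.4%, 18.9 to 73.3), the latter too few to read. The sites of the lists also differed in RXRα. Their median RXRα control rank was 61.0 for glucose and amino acid metabolism, 58.9 for plasma proteins and 57.2 for the retinoid pathway. It was 40.1 for ribosomal protein genes and 48.6 over all genes. RXRα under RA was called within 10 kb of 100% of the glucose and amino acid genes, against 62.7% of all genes. RXRα strength and RXRα binding were not taken out of the shares of sites and genes. The lists were chosen with earlier results of these data known, and no test of a list was made.

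Glucose and amino acid metabolism had a member at 13 of 30 genes (43.3%), and 19 of 38 of its sites gained RARβ (50%, 34.8 to 65.2). Pck1, the rate-limiting enzyme of gluconeogenesis and a known RA target, had a member 6.18 kb upstream with 212.1 for RARβ under RA, 464.08 for RXRα under control and 718.6 for RXRα under RA. Mat1a, which makes S-adenosylmethionine, had 3 members, the strongest at 198.45, 245.11 and 337.7. Tat, a tyrosine aminotransferase, and Hpd, the next enzyme of tyrosine breakdown, had 2 members each, the strongest at 111.02 and 110.76 for RARβ. At Hpd the RXRα scores were 88.61 and 449.45, ranks of 29.6 and 87.3. The urea cycle genes Cps1 and Arg1 had members 530 bp downstream and 902 bp upstream of a start, at 84.63 and 72.83. In 10 of the 13 genes the RXRα rank of the strongest member was higher under RA, with Fbp1, Cbs and Pfkfb1 lower, against 44 of the 79 list genes with a member (55.7%). No control RARβ peak lay within 10 kb of 7 of the 13 genes, against 30 of the 79 (38.0%). In both comparisons the 79 include these 13.

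The retinoid pathway had a member at 11 of 28 genes (39.3%), and 13 of 28 sites gained RARβ (46.4%, 29.5 to 64.2). Receptor genes were among them. The Rxrb member is the one near Col11a2 above. Rara had 2 members, the stronger 393 bp upstream of a start with 126.98 for RARβ under RA, 390.36 for RXRα under control and 663.11 for RXRα under RA. Rarg and Rxra had 1 each, at 69.6 and 51.87, the latter close to the floor. Of the genes that carry or convert retinoids, Rbp4, the plasma carrier of retinol, had a member at 125.67, Dhrs3, which reduces retinal to retinol, at 122.79, Cyp26b1, which degrades RA, at 90.82, and Rdh10 and Aldh1a1, which make retinal and RA, at 60.47 and 54.23. The list also takes in RAR targets, and Tgm2 and Pck1 were among the 11. The Pck1 member is the one already counted for glucose and amino acid metabolism, and the Rdh10 member is also that of Rpl7 in the ribosomal protein list. The RXRα rank was higher under RA at 4 of the 11 genes, Pck1 included. The RXRα score of Dhrs3 was near the floor in both diets, at 63.54 and 51.89.

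Secreted plasma proteins had a member at 11 of 34 genes (32.4%), and 14 of 31 sites gained RARβ (45.2%, 29.2 to 62.2). Ambp, the precursor of α1-microglobulin and bikunin, had the strongest at 214.57, with 585.04 for RXRα under control and 761.78 under RA, and a RARα peak 390 bp away. Hamp, which encodes the iron hormone hepcidin, had 151.78, 175.97 and 402.93 in the same order, and Fgg, the fibrinogen γ chain, 143.5, 705.81 and 1026.0. Serpina3k and Serpina1a, members of the serine protease inhibitor cluster on chromosome 12, had members at 108.65 and 64.9 for RARβ. Serpina3k had 3 members, the strongest with RXRα at 479.4 and 670.6 and the nearest RARα peak 14101 bp away, and at Serpina1a a RARα peak lay 3382 bp from the member. Genes of this cluster are near-identical copies in part, and peaks called from 35-base reads are uncertain where copies are alike.

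Xenobiotic metabolism had a member at 9 of 30 genes (30.0%), with 9 of 29 sites gained (31.0%). Cyp2b10, the classical CAR target, had the strongest, 4.36 kb upstream at 119.74 for RARβ, 200.26 for RXRα under control and 286.19 under RA. Cyp2e1, an ethanol-oxidising P450 whose promoter is printed above, had a member 64 bp upstream at 97.88, 195.81 and 362.14. Cyp2c37 and Cyp2c38 had 87.69 and 87.05 for RARβ. No control RARβ peak lay within 10 kb of 7 of the 9 genes, against 30 of all 79 list genes with a member (38.0%), these 9 included. Cyp2a, Cyp2b and Cyp2c genes also have close copies, however.

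The lists of lipid metabolism had shares of sites nearer to that of all genes, but with few sites their intervals overlap those of the lists above. PPARα targets had a member at 7 of 28 genes (25%), with 7 of 27 sites gained (25.9%, 13.2 to 44.7). Of these genes, Hadha and Hadhb share 1 member. Targets of LXR and FXR had a member at 7 of 30 genes (23.3%), with 7 of 25 sites gained (28.0%, 14.3 to 47.6). Lipogenesis and triglyceride handling had 6 of 30 (20%) and 7 of 25 sites (28.0%, 14.3 to 47.6). With gene spans and 10 kb on either side, where all genes were at 13.2%, lipogenesis was at 40%, and within 50 kb at 70%. Aldh3a2, a fatty aldehyde dehydrogenase, led the PPARα list at 116.92, followed by the lipid droplet protein gene Plin2 at 103.29 and Cpt1a, the gate of mitochondrial fatty acid oxidation, at 85.43. Cyp7a1, the rate-limiting enzyme of bile acid synthesis, had one of the stronger RXRα regions, 690.54 under control and 722.04 under RA, and a RARβ score of only 76.41. Scarb1, the HDL receptor, had 63.18 for RARβ and RXRα scores of 104.27 and 394.21. After the Plin4 and Plin5 member, the lipogenesis list was led by Mgll, a monoacylglycerol lipase, at 176.15, Mlxipl, which encodes the glucose-sensing factor ChREBP, at 157.26, and Lpin2, a phosphatidate phosphatase, at 141.08.

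Circadian clock genes had a member at 3 of 19 (15.8%), with Cry2, a repressor of the clock, the strongest at 79.05, and transcription factors of hepatocytes at 2 of 22 (9.09%), namely Tbx3 and Foxa1 at 64.16 and 59.24. With gene spans the clock list was at 47.4% and the transcription factor list at 22.7%, against 13.2% of all genes. Markers of cell types were used to check the labelled tissue. Hepatocyte markers had a member at 4 of 9 genes (44.4%), namely Pck1, Cyp2e1, Cps1 and Serpina1a, which the lists above also hold, and 5 of 16 sites gained RARβ (31.2%). Stellate cell markers had 1 of 12, Ecm1 at 64.43, and markers of Kupffer cells (11), sinusoidal endothelial cells (10), cholangiocytes (8) and lymphocytes (8) had 0. The marker lists are short, and an absence of members there says little about those cells, since the upper limits of their intervals were 25.9% or more. With gene spans, endothelial markers were at 30% and cholangiocyte markers at 12.5%, and within 50 kb at 40% and 37.5%.

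**Figure D5:**
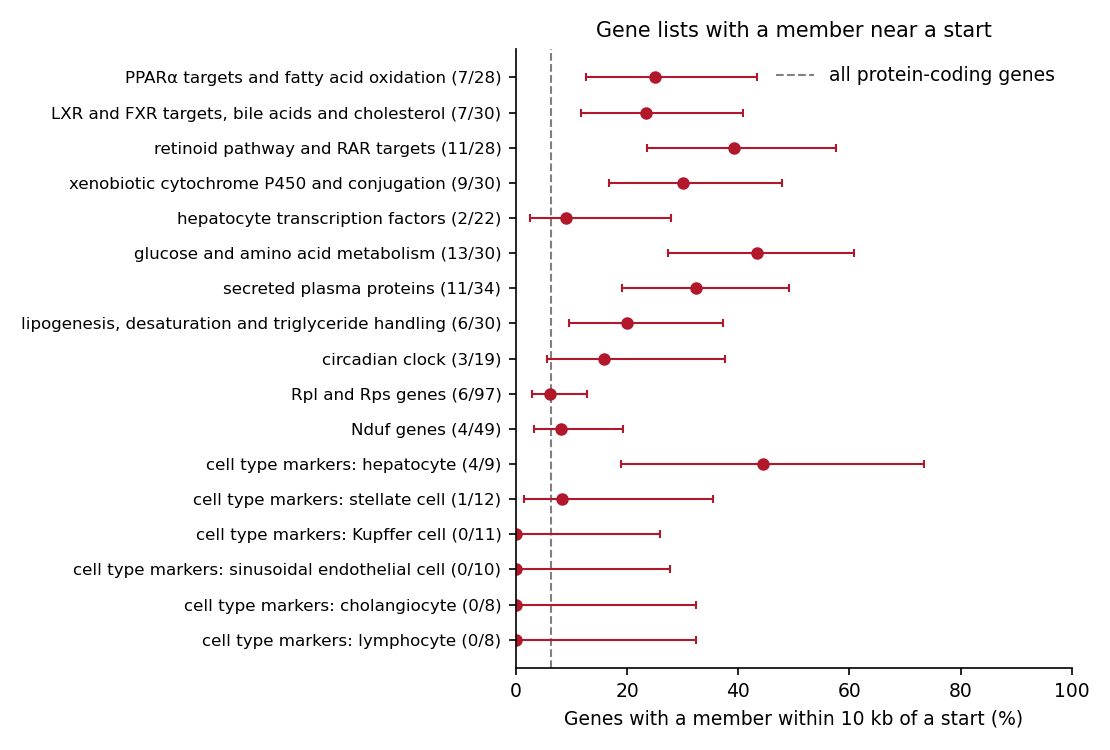
Share of the genes of each list with a member within 10 kb of a start (x axis, percent), with the number of genes with a member over the number in the list beside each name (y axis) and Wilson 95% intervals. The dashed line is the share of all protein-coding genes, 6.36%. Hepatocyte markers (44.4%) and glucose and amino acid metabolism (43.3%) lie farthest right, and the ribosomal protein list (6.19%) lies on the line.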

How the data were processed

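Livers were analysed by ChIP-seq with antibodies against RARα, RARβ and RXRα, 1 library per receptor and diet. Per the labels, CASAVA 1.4 and Bowtie were used on mm10, and the study's methods name MACS as the peak caller. The study's text describes RARα and RXRα only, so the handling of RARβ is not given in the sources used here. The authors deposited 1 BED peak list per library with a score per peak, and no list appeared pooled. Read depth, which limits precision, was not in the lists.

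Peaks were merged, regions called and ranks and distances computed in python 3.11.15 (pandas 2.3.3, scipy 1.17.1, figures with matplotlib 3.10.9), after the steps recovered the truth in simulated lists. A rank is the percentage of lower-scoring peaks of a list, with ties averaged. Gene starts were those of the RefSeq promoter table of GRCm38.p6 and the outermost start of each gene span. Strand came from that table for 17492 protein-coding genes and by symbol from GENCODE M1 for 4044, and 364 without a strand were left out. Distances of members ran from the RARβ midpoint, those of sites near listed genes from the RXRα midpoint under RA. No coordinates of NCBIM37 were used: the highest peak end on chromosome Y, 90842021, lies just before the last gene end of GRCm38.p6 there, 90843932. Members and lists were chosen with earlier results of these data known. Named were the 20 members with the highest RARβ score, the 10 highest within 1 kb of a start, the genes with most members, up to 4 genes of each list by RARβ score, and the edges of the rule. List genes beyond 4 were named after their values were seen, as were the direct-repeat windows. No test across groups was possible with 1 library each. An item of the gene lists is not reported here.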

Additional observations from a re-analysis of the deposited data

How the results depend on the processing

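Each of the 5 values was recomputed with 1 choice changed at a time. With a score of at least 100 asked of the RARβ peak under RA and of both RXRα peaks, 942 members remained, and 2.55% lay within 1 kb of a start, 27.0% within 10 kb, 63.7% had a higher RXRα rank under RA, and the gain share was 9.61%. With the same number of top peaks taken from each list, 2850 regions met the rule, 24.2% within 10 kb and 57.6% with a higher rank. This setting also dropped weaker RARα peaks before the rule was applied, so regions that hold such peaks could enter. The gain share was then 45.3%, its largest move in percentage points, while as a ratio the move to 9.61% was larger. With a score of at least 100 in all 6 lists, 3377 regions met the rule, 26.6% lay within 10 kb, 60.1% had a higher rank and the gain share was 18.3%. Weaker RARα and control RARβ peaks were dropped here too. Only 1065 of the 4314 members had a RARβ score of at least 100, so most of the 3377 were other regions. These 2 settings apply the rule to other lists and do not follow the same regions. Without regions that had a RARα or control RARβ peak within 1 kb, 2.62% lay within 1 kb and 26.6% within 10 kb. Genes of every kind gave 5.31% and 39.6%, and the outermost start of each gene alone, an alternative added after seeing the data, gave 2.57% and 26.2%. The share with a higher RXRα rank stayed above 50% in each setting run. The other values, 29 in number, moved less than the interval of the value or, for the count, by less than 1.5 times; these include leaving out chromosome Y, also added later. Of the 17 gene lists, 12 were above all genes within 10 kb of a start, 12 when gene spans were used and 14 within 50 kb. The search for repeats over whole RARβ peaks was not run, since no sequence of the build was at hand. No paired analysis was possible because each group has 1 library and the labels carry no replicate numbers. Without read counts or a second library, neither depth nor the spread between animals can be told apart from diet.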

Other observations

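A single annotated miRNA hairpin overlapped the RARβ peak of a member, that of Mir1936 on chromosome 12 at 102684928 to 102685020 on the minus strand, 19.9 kb from the nearest protein-coding start, that of Itpk1. The region scored 55.08 for RARβ under RA, 211.84 for RXRα under control and 217.03 for RXRα under RA. Another member lay within 10 kb of 513 members (11.9%) and within 50 kb of 1629 (37.8%). Where RARβ was already called under control at RXRα regions without RARα, it was called again under RA in 418 of 785 regions (53.2%, 49.8 to 56.7), and these 418 regions had a higher median RARβ score under RA, 91.1, than the members. Across the 4314 members, Spearman's correlation of the RARβ score was 0.35 with the RXRα score under RA and 0.25 with the RXRα score under control, a description over regions that share 3 libraries.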
